A study of Mus musculus with 8 samples.

Results

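The BCL2 family decides at the mitochondrial outer membrane whether a cell commits to apoptosis, and the accessibility of its genes was described here for 10 mouse members. They were the guardians Bcl2, Bcl2l1, Mcl1 and Bcl2a1a, the pore-forming effectors Bax and Bak1, and the BH3-only initiators Bcl2l11, Bid, Bbc3 and Pmaip1. All regions of the count table that overlapped a member's gene span on the mouse build GRCm38, or lay within 25 kb of it, were taken. This gave 104 of the 59906 regions in the table. Of these, 13 lay at a gene start, 38 inside a gene and 53 in a flank, where for Pmaip1 the region at the gene end with the lower coordinate stood for the start, since its strand was not in the annotation used.

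In healthy cells BCL2, BCL-XL (the product of Bcl2l1), MCL1 and A1 (the product of Bcl2a1a) hold BAX and BAK in check. BH3-only proteins occupy the guardians, or activate BAX and BAK, which then permeabilise the outer membrane and release cytochrome c. Much of the cytochrome c is stored inside cristae, whose narrow junctions are kept by OPA1, the inner-membrane GTPase that also fuses mitochondria. The survival of dendritic cells is known to depend on the balance between BIM, the product of Bcl2l11, and the guardians.

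The assay was ATAC-seq, in which a transposase cuts and tags open DNA, on type 1 conventional dendritic cells (cDC1) purified from spleen. The OPA1-deficient mice were CD11c-Cre; OPA1 flox, in which Cre is driven by the promoter of the dendritic cell integrin gene Itgax, with 4 libraries. The other group was WT, also with 4 libraries. The labels do not say whether WT mice carried Cre or a floxed allele, name no age or strain, and do not tie a library to an animal, so every p-value below reflects only how far these libraries scatter, part of which may be technical. Counts in regions totalled 4660826 to 7590578 per library. Levels are CPM, counts relative to library depth, after TMM scaling, and since they grow with the width of a region, a region called strong has many counts and need not be dense. Each difference is a log2 fold change, positive where the OPA1-deficient group was higher, and carries the standard error of edgeR's quasi-likelihood test. Of 10 cDC1 markers 9 had a region at a gene end, with summed levels of 246 to 270 CPM in OPA1-deficient libraries and 233 to 266 CPM in WT libraries. No gene-end region was found for Itgae. At the targeted gene, 1 region was found, at the start of Opa1, and since the labels do not say which part is deleted it does not check the deletion. Its level was 34.6, 41.3, 37.9 and 43 CPM in OPA1-deficient libraries and 47, 40.7, 42.8 and 37.8 CPM in WT libraries (−0.11 ± 0.12, edgeR adjusted p = 0.925).

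Sequences from RefSeq on GRCm38.p6 show the 250 bases before a gene start for members whose windows held the letters of PU.1 or FOXO cores. Bcl2a1b and Bcl2a1d, copies of Bcl2a1a outside the member list, are printed too. The Bcl2a1 genes are shown first because they have near-identical copies, which limits how reads can be assigned. Capitals mark the letters GAGGAAGT, or their reverse complement, the core bound by PU.1, a factor of myeloid and dendritic cells. These letters were found in 2.23% of 21263 windows of the same length before protein-coding starts. The windows are chr9:88956670-88956919 on the + strand for Bcl2a1a, chr9:89199023-89199272 on the + strand for Bcl2a1b, chr9:88731851-88732100 on the - strand for Bcl2a1d and chr17:27028628-27028877 on the - strand for Bak1.
Bcl2a1a: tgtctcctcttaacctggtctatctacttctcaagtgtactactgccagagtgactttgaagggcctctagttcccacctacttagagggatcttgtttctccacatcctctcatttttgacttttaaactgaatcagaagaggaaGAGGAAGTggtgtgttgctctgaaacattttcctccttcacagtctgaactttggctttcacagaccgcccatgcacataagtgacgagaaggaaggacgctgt
Bcl2a1b: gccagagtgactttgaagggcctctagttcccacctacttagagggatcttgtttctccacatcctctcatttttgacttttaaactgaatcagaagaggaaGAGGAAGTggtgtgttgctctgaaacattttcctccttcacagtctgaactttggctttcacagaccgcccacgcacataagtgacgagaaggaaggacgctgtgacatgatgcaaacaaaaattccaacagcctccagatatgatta
Bcl2a1d: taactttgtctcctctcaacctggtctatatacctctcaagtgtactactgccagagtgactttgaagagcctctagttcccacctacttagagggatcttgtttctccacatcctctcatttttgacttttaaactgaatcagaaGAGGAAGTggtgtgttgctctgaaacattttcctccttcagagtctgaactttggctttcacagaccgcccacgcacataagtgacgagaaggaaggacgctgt
Bak1: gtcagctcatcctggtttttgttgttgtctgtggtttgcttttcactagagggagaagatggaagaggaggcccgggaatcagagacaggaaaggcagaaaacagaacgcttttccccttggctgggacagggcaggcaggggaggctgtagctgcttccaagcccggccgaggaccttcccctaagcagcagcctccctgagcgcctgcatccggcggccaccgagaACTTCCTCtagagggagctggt
Among the windows of the members, those of Bcl2a1a and Bak1 were the ones that held these letters. The window of a further copy, Bcl2a1c, which is not printed, held them as well. Over the aligned part of the windows, Bcl2a1b matched Bcl2a1a at 254 of 256 bases (99.2%). Bcl2a1d matched Bcl2a1a at 288 of 300 aligned positions (96%), with 6 mismatches and 6 gaps. The match for Bcl2a1c was 182 of 190 bases (95.8%).

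A second pair of windows shows the letters TGTTTAC, or their reverse complement, in capitals. They are a core bound by FOXO factors, which are known to activate Bcl2l11 and Bbc3, and stood in 2.62% of all windows. Both BH3-only genes held them, at chr2:128125788-128126037 on the + strand for Bcl2l11 and at chr7:16310011-16310260 on the + strand for Bbc3.
Bcl2l11: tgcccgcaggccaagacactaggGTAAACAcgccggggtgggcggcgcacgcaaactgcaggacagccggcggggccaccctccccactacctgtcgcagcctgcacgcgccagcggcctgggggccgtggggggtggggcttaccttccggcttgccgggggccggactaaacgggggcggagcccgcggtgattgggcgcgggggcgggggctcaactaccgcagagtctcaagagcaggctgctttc
Bbc3: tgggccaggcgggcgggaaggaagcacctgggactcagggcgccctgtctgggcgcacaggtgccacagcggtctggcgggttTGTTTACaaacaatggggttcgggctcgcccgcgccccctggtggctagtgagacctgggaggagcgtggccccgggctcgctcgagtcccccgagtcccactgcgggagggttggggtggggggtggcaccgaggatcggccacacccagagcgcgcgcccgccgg
The 14 windows of the 9 members with a RefSeq promoter entry ranged in GC content between 45.2% at Bcl2a1a and 81.6% at a Bbc3 start, against a median of 55.6% over all windows. The GC box GGGCGG, read on both strands, was found in 10 of the 14 windows, at 7 of those members, and in 42.6% of all windows. Of the other motifs searched on both strands, CACGTG (6.63% of all windows) was found at Bax and Bbc3, TGANTCA (6.13%) at Bcl2a1a, and CCAAT (35.4%) at Bbc3 and Bcl2l11. The NF-κB consensus (4.18%) was found at Bbc3 and Bcl2l1, and the p53 half-site (6.31%) at Bax. No member window held TGACGTCA (1.92%), TGATGNAA (3.18%) or TATAAA (11.6%), nor the NRF1 palindrome (1.07%) or the interferon-stimulated response element (2.96%). These matches describe letters in a window and not sites in use.

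The first question was whether accessibility at these genes differed between OPA1-deficient and WT cDC1. No member region passed: 0 of 103 tested regions had an edgeR adjusted p under 0.05, where the rate over all regions was 0.0203% (12 of 59247), and the smallest edgeR adjusted p of a member was 0.423. At an unadjusted p under 0.05, 2 member regions (1.94%) passed in edgeR, against 6.38% of all regions, and DESeq2 also gave 2. Of these 2, 1 was higher, where 2.92% of all regions were, and 1 was lower, where 3.46% were. Without WT replicate 2 this count was 7 (6.8%), where 8.56% of all regions passed in the same fit. Of the 7, 6 were higher, where 4.01% of all regions passed and were higher. Without OPA1-deficient replicate 4 the count was 4 (3.88%), where 7.02% of all regions passed. The calls over all regions moved between 1 and 68 when 1 library was left out, with 68 without WT replicate 2. The remaining region, in a flank of Mcl1, was too low to test, with a mean of 1.3 CPM.

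The groups did not overlap at 5 member regions (4.85%), against 3.95% of all regions, so the share was near the background. Of these, 4 were higher in OPA1-deficient libraries, as were 1.84% of all regions, and 1 was lower, as were 2.11%. The log2 fold change was above 0 at 56 member regions and below 0 at 47, with a median of 0.02, and the median over all tested regions was 0. It stayed under 0.25 in size at 80 member regions (77.7%), against 66.4% of all regions, while the member regions also had a higher median level (10.1 CPM, against 6.76 CPM over all tested regions). By role, the guardians had 25 regions above 0 and 26 below. The effectors had 11 above and 5 below, and the BH3-only genes had 20 above and 16 below. The plot of fold changes by gene shows these regions gene by gene.

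**Figure D1:**
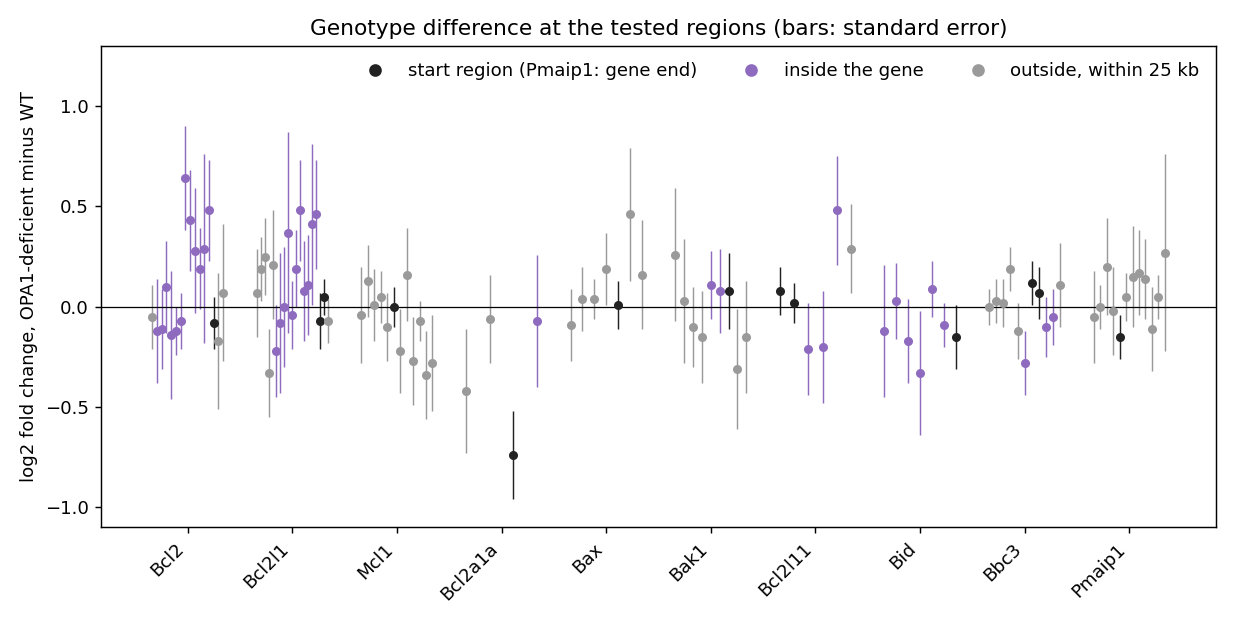
Log2 fold change, OPA1-deficient minus WT, of every tested region (y axis, bars are 1 standard error) for each BCL2 family gene (x axis), in order of position, with colour marking start, inside and flank regions. Most points lie within 0.25 of 0, and the lowest point, at −0.74, is the start region of Bcl2a1a.

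At gene starts, accessibility per kilobase of region varied between members, each represented by its start region with the most counts. In WT libraries Bcl2l11 had the highest level at 150 ± 25.2 CPM per kb (SD, n = 4), followed by Mcl1 (125 ± 19), Bbc3 (119 ± 15.1), Bcl2l1 (92.7 ± 3.54) and Bid (77.7 ± 17.9). Then came Bax (63.4 ± 4.4), Pmaip1 (61.3 ± 3.61), Bcl2 (50.6 ± 8.5), Bak1 (42.3 ± 9.54) and Bcl2a1a (32.4 ± 2.2). Of these neighbours in the WT order, the ranges over libraries overlapped in every pair except Bbc3 and Bcl2l1. The ranges do not pair the genes by library, so they cannot show whether adjacent ranks differ, and the order was not tested. Starts of BH3-only genes stood at both the top and the middle of the order. In OPA1-deficient libraries Bbc3 (130 ± 19.4 CPM per kb) stood above Mcl1 (125 ± 18), and the other members kept their places. Among all regions of the table, the WT level per kb of the start regions ranged between the 71.5th percentile at Bcl2a1a and the 98th at the second Bcl2l11 start.

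**Figure D2:**
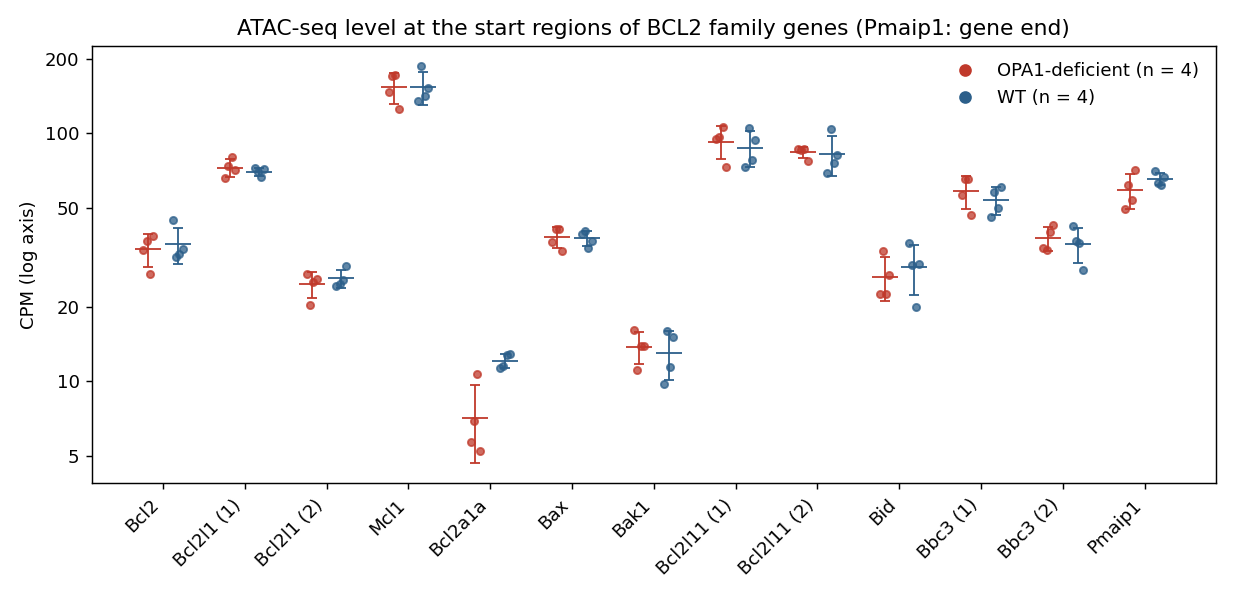
Level in CPM (log axis) of each library (points) at the start regions of the BCL2 family genes, with group mean and SD (n = 4), OPA1-deficient left of WT. Where a gene has more than 1 start region, they are numbered from the higher level, and for Pmaip1 the region is at a gene end. The groups overlap at every member except Bcl2a1a, whose 4 OPA1-deficient libraries (5.25 to 10.7 CPM) all lie below the 4 WT libraries (11.3 to 12.9 CPM).

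Among the guardians, Bcl2 spans 176 kb on chromosome 1 (106538176 to 106714290) and had 16 regions. Its start region (106713931 to 106714636) had 33.7, 36.8, 27.1 and 38.5 CPM in OPA1-deficient libraries and 44.5, 31.6, 32.5 and 34.1 CPM in WT libraries. The groups overlapped, with 1 WT library above the other 7. The difference was −0.08 ± 0.13 (95% interval −0.35 to 0.2, edgeR adjusted p = 0.96). The strongest region of the gene lay inside it, 86.6 kb from the start (106627096 to 106627667), at 40.3 ± 3.6 CPM in OPA1-deficient libraries and 42.1 ± 10.6 CPM in WT libraries (SD, n = 4 each).

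A region with fewer counts inside Bcl2, 59.7 kb from its start (106654275 to 106654583), was the other member region with an unadjusted p under 0.05. It had 5.12, 7.98, 6.03 and 6.89 CPM in OPA1-deficient libraries and 5.02, 3.43, 4.01 and 4.12 CPM in WT libraries. Every OPA1-deficient library was above every WT library, but the lowest of the first group and the highest of the second were nearly equal. The difference was 0.64 ± 0.26 (95% interval 0.11 to 1.17), with an edgeR unadjusted p of 0.02 and an edgeR adjusted p of 0.695. The edgeR unadjusted p was 0.0703 when OPA1-deficient replicate 2 was left out (0.53) and 0.0585 when WT replicate 2 was (0.55), so it was under 0.05 only with both libraries in the fit. From this region to the start, Bcl2 had 6 inside regions, all with a log2 fold change above 0 (0.19 to 0.64), while 1 of the 6 inside regions farther from the start was above 0. This stretch was delimited after its values were seen and was given no test. Some of its values moved strongly with single libraries. The region at 106694485, at 0.28, was at 0.02 when OPA1-deficient replicate 1 was left out and at 0.7 when WT replicate 2 was. The region at 106707372, at 0.29, was at 0.05 when OPA1-deficient replicate 3 was left out and at 0.54 when WT replicate 3 was. The region at 106695695, at 0.19, was at 0.13 when WT replicate 2 was left out and at 0.31 when OPA1-deficient replicate 1 was. With 1 library left out, the region at 106654275 ran from 0.53 to 0.75. In the same fits the region at 106678133 ran from 0.34 to 0.62 and that at 106712379 from 0.37 to 0.64. Summed over the stretch, levels were 35.1, 43, 40.4 and 37.7 CPM in OPA1-deficient libraries and 30.4, 35.5, 25.1 and 28.9 CPM in WT libraries. The sums overlapped narrowly, with WT replicate 2 above OPA1-deficient replicate 1. The plot of levels along Bcl2 and Bcl2l1 shows each region by its distance from the start.

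**Figure D3:**
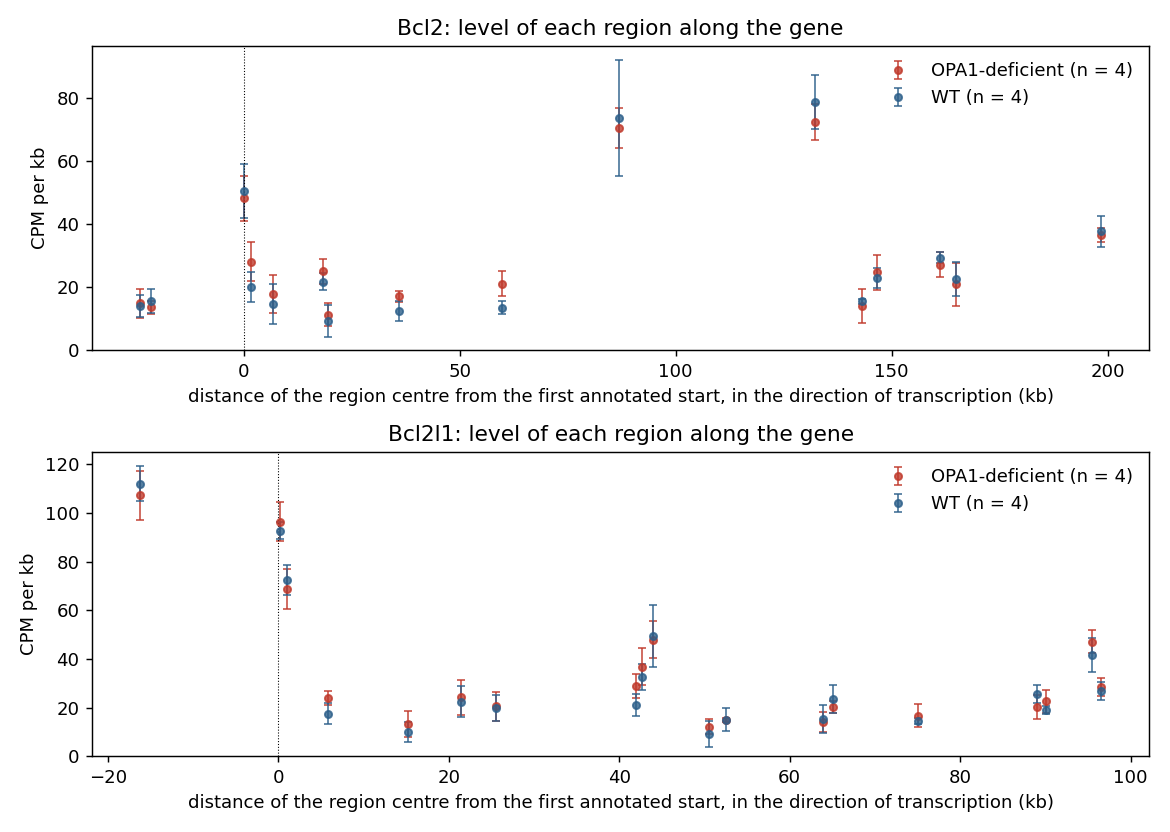
Mean level of each region in CPM per kb (y axis, bars are SD, n = 4) in OPA1-deficient and WT libraries against distance from the gene's first start in kb (x axis) for Bcl2 and Bcl2l1. At the 6 inside regions of Bcl2 nearest the start the OPA1-deficient means lie above the WT means, with overlapping bars at most of them.

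Bcl2l1, which encodes the guardian BCL-XL, had 19 regions over and around its 75.1 kb span on chromosome 2 (152758732 to 152833803), 13 above 0 and 6 below, with a median of 0.08. Its stronger start region (152831158 to 152831913) had 65.7, 73.8, 80.2 and 71 CPM in OPA1-deficient libraries and 72.4, 69.5, 66.4 and 71.7 CPM in WT libraries. OPA1-deficient libraries included both the highest and the lowest value. The difference was 0.05 ± 0.09 (95% interval −0.14 to 0.24, edgeR adjusted p = 0.959). The second start region (152830493 to 152830851) was at 24.6 ± 2.97 CPM in OPA1-deficient libraries and 26 ± 2.25 CPM in WT libraries (SD, n = 4 each). With all 8 libraries no region of the gene reached an unadjusted p under 0.05. The largest difference, 0.48 at a region 38.7 kb from the nearest start (152789591), had overlapping groups. Its edgeR unadjusted p fell just under 0.05 without OPA1-deficient replicate 2 (0.0397), WT replicate 2 (0.0484) or WT replicate 3 (0.0468).

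Mcl1, the short-lived guardian that many blood cells need, had the region with the highest CPM of the family at its start on chromosome 3 (95658466 to 95659696, 1230 bp wide). It had 146, 170, 172 and 125 CPM in OPA1-deficient libraries and 135, 187, 141 and 152 CPM in WT libraries. Both groups covered a like range, with WT replicate 2 highest and OPA1-deficient replicate 4 lowest. The difference was 0 ± 0.1 (95% interval −0.22 to 0.21, edgeR adjusted p = 1). No region was found inside this 6.24 kb gene away from its start, and its other 12 regions all lay in the flanks. A strong flank region (95650452) had 112 ± 19.4 CPM in OPA1-deficient libraries and 111 ± 29.8 CPM in WT libraries (SD, n = 4 each). Across the 12 tested regions of Mcl1, log2 fold changes ran between −0.34 and 0.16, and no groups were separated. Without WT replicate 2 the flank region at 95645296 was at 0.34 (edgeR unadjusted p = 0.0121), against 0.13 with all libraries. One flank region overlapped the promoter window of its neighbour Adamtsl4.

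Bcl2a1a, a guardian induced by NF-κB in blood cells, was the member with the largest difference and the smallest p. Its start region on chromosome 9 (88956795 to 88957168) covers the first bases of the gene and 125 of the 250 bases printed for it, the PU.1 letters included. It had 5.69, 6.89, 10.7 and 5.25 CPM in OPA1-deficient libraries and 11.3, 11.5, 12.7 and 12.9 CPM in WT libraries, from 470 counts over the 8 libraries. All 4 OPA1-deficient libraries were below all 4 WT libraries, with OPA1-deficient replicate 3 close to the WT values. The means were 7.14 ± 2.49 CPM in OPA1-deficient libraries and 12.1 ± 0.819 CPM in WT libraries (SD, n = 4 each). The difference was −0.74 ± 0.22 (95% interval −1.19 to −0.29), with an edgeR unadjusted p of 0.00197 and an edgeR adjusted p of 0.423, so it did not pass over all regions.

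The other 3 regions of Bcl2a1a were below 0 by less, at −0.06 to −0.42, with overlapping groups. The 2 flank regions lie within the neighbouring gene model Gm2396. The strongest of the 4 regions was a flank region 3.34 kb from the start (88953174 to 88953578), at 10.7 ± 2.54 CPM in OPA1-deficient libraries and 11 ± 2.87 CPM in WT libraries (SD, n = 4 each). Reads that match more than 1 copy of the gene could be split between copies, and how the submitters treated such reads is not given in the sources used here, so the value of Bcl2a1a is uncertain.

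The start region of the most similar copy, Bcl2a1b (89199100 to 89199504), had 11.1, 18.5, 15 and 17.1 CPM in OPA1-deficient libraries and 13.1, 17.5, 13.1 and 16.1 CPM in WT libraries. These groups overlapped (0.04 ± 0.18, 95% interval −0.34 to 0.41). At Bcl2a1c the difference was 0.28 ± 0.29 with overlapping groups, and the table used here held no region within 25 kb of Bcl2a1d. Summed over the start regions of the 3 copies, levels were 28.2 ± 4.07 CPM in OPA1-deficient libraries and 31.6 ± 2.18 CPM in WT libraries (SD, n = 4 each), with overlapping groups. The log2 ratio of Bcl2a1a over Bcl2a1b averaged −1.14 ± 0.53 in OPA1-deficient libraries and −0.3 ± 0.23 in WT libraries (SD, n = 4 each). The ranges overlapped, at −1.7 to −0.49 in OPA1-deficient libraries and −0.6 to −0.05 in WT libraries. An exact test over the 70 assignments of libraries to groups gave p = 0.0571, where the smallest p it could reach was 0.0286. The ratio was chosen after the values were seen, and this p does not allow for that choice.

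**Figure D4:**
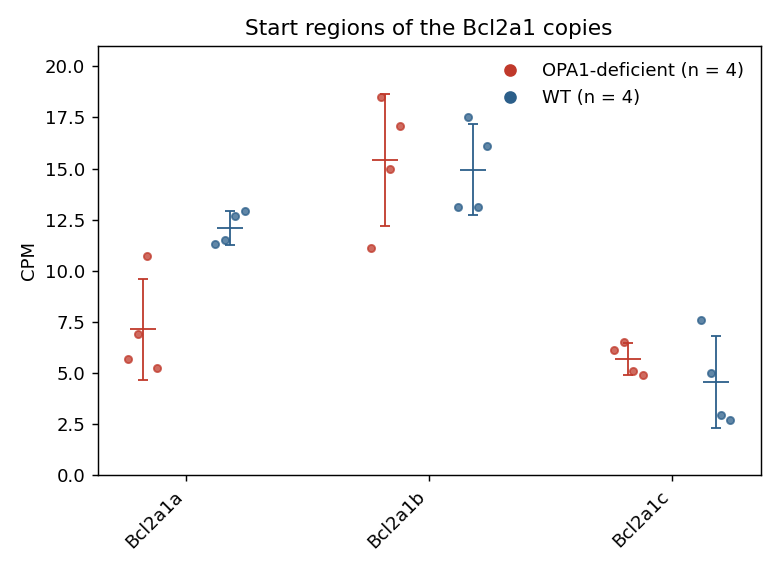
Level in CPM of each library (points) at the start regions of Bcl2a1a, Bcl2a1b and Bcl2a1c, with group mean and SD (n = 4), OPA1-deficient left of WT. The groups separate at Bcl2a1a and overlap at both copies.

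Most markers of monocytes and macrophages also had lower levels in OPA1-deficient libraries. At gene ends of the 12 markers, summed levels were 312 to 347 CPM in OPA1-deficient libraries and 326 to 378 CPM in WT libraries. The median log2 fold change was −0.36, 8 of the 12 were below 0, and 5 had an unadjusted p under 0.05, all lower, where 3.16% of all gene-end regions were lower and 0.89% higher at that p. C1qa, C1qb and C1qc, all below 0, are neighbours on chromosome 4 with the same locus sum, and C1qb and C1qc are among the 5. The markers are thus not all independent, and these counts cannot be weighed as separate results against the share over all gene-end regions. The groups did not overlap at 3 of them, C1qb and Hmox1 included, all lower, where 2.31% of all gene-end regions were lower and 0.861% higher in that way, and 0 of the 12 passed the adjusted threshold. None of the 12 was at 0, with mean levels in OPA1-deficient libraries from 1.98 CPM at C1qa to 138 CPM at Axl. The marker lists of cDC2, plasmacytoid dendritic cells, B, T and NK cells, neutrophils and red cells had median log2 fold changes between −0.11 and 0.52. Their summed levels overlapped between groups. The NK median rests on 1 of 4 markers with a gene-end region, and those of neutrophils and red cells on 2 of 5 each. Those of plasmacytoid dendritic, B and T cells rest on 3 of 6 each, and that of cDC2 on 5 of 6. One cDC2 marker went the other way: Itgam, an integrin also found on other myeloid cells and named after its values were seen, was at 23.5 ± 3.97 CPM in OPA1-deficient libraries and 14.4 ± 1.6 CPM in WT libraries (SD, n = 4 each) at its gene end (0.71 ± 0.16, edgeR adjusted p = 0.155). As a locus sum it passed (0.74 ± 0.1, edgeR adjusted p = 0.00953). Itgam lies in a gene cluster with Itgax, whose promoter drives Cre in the OPA1-deficient mice. The part of the transgene in the Itgam values was not tested. The part of any of the listed cell types in the Bcl2a1a value was not tested. Fewer cells of a type and less accessibility per cell cannot be told apart in bulk libraries.

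By the level over the 8 libraries, the gene-end regions most like the Bcl2a1a start, among 10565 others, were those of Nemp1 (Pearson r = 0.976 of log2 CPM), Klhdc9 (r = 0.972) and Btf3 (r = 0.963). With so many regions and 8 libraries, 20 regions had r over 0.9, and the libraries share their depth and genotype, so these values are a description.

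Of the effectors, Bax is a cytosolic protein that moves to mitochondria, and its start region on chromosome 7 (45466493 to 45467087) had 36.4, 41.1, 41 and 33.5 CPM in OPA1-deficient libraries and 39.1, 40.4, 34.4 and 36.9 CPM in WT libraries. The groups overlapped (0.01 ± 0.12, 95% interval −0.23 to 0.25, edgeR adjusted p = 0.997). The strongest of its 7 regions (45459725 to 45460155) lies in the promoter window of Ftl1, a ferritin light chain gene, and was at 75.8 ± 9.17 CPM in OPA1-deficient libraries and 73.8 ± 5.53 CPM in WT libraries (SD, n = 4 each). A weak flank region 10.2 kb outside the span (45477089 to 45477337) lies in the model of Dhdh. It had 3.41, 4.17, 3.75 and 3.44 CPM in OPA1-deficient libraries and 3.04, 3.27, 2.53 and 1.79 CPM in WT libraries. The groups did not overlap, yet the difference of 0.46 ± 0.33 had an interval that included 0 (−0.21 to 1.12, edgeR adjusted p = 0.871).

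Bak1, which sits in the outer membrane, had 9 regions on chromosome 17, all of them shared with or nearer to another gene model, mainly Ggnbp1. Its start region (27028485 to 27028793) had 16.1, 11.1, 13.9 and 13.9 CPM in OPA1-deficient libraries and 9.73, 15.9, 11.4 and 15.1 CPM in WT libraries. The ranges of the groups overlapped widely (0.08 ± 0.19, 95% interval −0.31 to 0.47, edgeR adjusted p = 0.971). An inside region (27025336 to 27025754), the strongest of the gene, was at 24.3 ± 4.97 CPM in OPA1-deficient libraries and 22.5 ± 6.42 CPM in WT libraries (SD, n = 4 each), with WT replicate 2 the highest of all 8.

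Of the BH3-only genes, Bcl2l11 encodes BIM, the main killer of unneeded leukocytes, and has a pair of accessible starts on chromosome 2. The first (128125592 to 128126174), which overlaps the model of Acoxl, had 94.7, 96.6, 106 and 72.8 CPM in OPA1-deficient libraries and 73.3, 105, 77.8 and 94.1 CPM in WT libraries. The second (128127213 to 128127721) had 86.2, 85.9, 86.1 and 77.6 CPM in OPA1-deficient libraries and 69.3, 104, 75.5 and 81.4 CPM in WT libraries. At both starts OPA1-deficient replicate 4 was the lowest of its group and WT replicate 2 the highest of its own. The differences were 0.08 ± 0.12 (95% interval −0.16 to 0.32, edgeR adjusted p = 0.947) and 0.02 ± 0.1 (95% interval −0.19 to 0.23, edgeR adjusted p = 0.988). An inside region 26 kb from the nearest start (128153541 to 128153845) had 6.12, 5.26, 5.5 and 4.59 CPM in OPA1-deficient libraries and 4.1, 4.36, 4.01 and 2.87 CPM in WT libraries. Its groups did not overlap, though by little, and the difference was 0.48 ± 0.27 (95% interval −0.07 to 1.03, edgeR adjusted p = 0.824).

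Bid, which caspase-8 cleaves to link death receptors to mitochondria, had its start on chromosome 6 (120916653 to 120917024) at 22.5, 33.5, 22.4 and 26.9 CPM in OPA1-deficient libraries and 36.2, 29.3, 20 and 29.8 CPM in WT libraries. Both groups were spread widely and overlapped (−0.15 ± 0.16, 95% interval −0.47 to 0.18, edgeR adjusted p = 0.925). A stronger region 1.22 kb from the start (120914857 to 120915602) was at 54.1 ± 7.84 CPM in OPA1-deficient libraries and 57.9 ± 7.2 CPM in WT libraries (SD, n = 4 each). Of its 7 regions, 2 were above 0 and 5 below, between −0.33 and 0.09, and none had separated groups.

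Bbc3 encodes PUMA, a p53 target, and its first start region on chromosome 7 (16309230 to 16309680) had 56.3, 65.3, 65.2 and 46.9 CPM in OPA1-deficient libraries and 46.1, 58, 50 and 60.6 CPM in WT libraries. The groups overlapped (0.12 ± 0.11, 95% interval −0.11 to 0.36, edgeR adjusted p = 0.91). The second start region (16310007 to 16310433), which covers the FOXO letters printed for Bbc3, was at 37.6 ± 4.22 CPM in OPA1-deficient libraries and 35.7 ± 5.83 CPM in WT libraries (SD, n = 4 each). The strongest region near the gene (16285891 to 16286953), at 133 ± 14.1 CPM in OPA1-deficient libraries and 133 ± 8.63 CPM in WT libraries, lies in the promoter window of Ccdc9. A flank region 11.2 kb outside the span (16296823 to 16297218) had 45.9, 44.2, 50.1 and 46.2 CPM in OPA1-deficient libraries and 35.9, 43.9, 40.5 and 43.6 CPM in WT libraries. Its lowest OPA1-deficient value was just above its highest WT value, with a difference of 0.19 ± 0.11 (95% interval −0.04 to 0.41, edgeR adjusted p = 0.826). Of the remaining Bbc3 regions, the flank region at 16326199 was at 0.45 without WT replicate 2 (edgeR unadjusted p = 0.0268), against 0.11 with all libraries, and the inside region at 16308574 was at −0.37 without OPA1-deficient replicate 3 (edgeR unadjusted p = 0.0462), against −0.28.

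Pmaip1 encodes NOXA, a selective partner of MCL1 and A1, and had 12 regions on chromosome 18, 11 of them in the flanks. The gene-end region (66457948 to 66459017) had 49.4, 62, 53.8 and 71 CPM in OPA1-deficient libraries and 70.4, 63.1, 61.8 and 66.7 CPM in WT libraries. The OPA1-deficient group held both the lowest values and the highest one, so the groups overlapped (−0.15 ± 0.11, 95% interval −0.37 to 0.06, edgeR adjusted p = 0.867). Its flank regions ran up to 0.27, and with all 8 libraries none of the 12 had separated groups or an unadjusted p under 0.05. Without OPA1-deficient replicate 4 the gene-end region was at −0.25 (edgeR unadjusted p = 0.0243).

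When counts were summed over all regions of a locus, so that each gene gave 1 value, 0 of the 10 members passed in edgeR, where 0.0236% of 16980 protein-coding loci did (4 loci). The Bcl2a1a locus was the 1 member with an unadjusted p under 0.05, against 5.21% of all loci, and it was lower, as were 3.94% of all loci. No member had separated groups, against 3.15% of all loci (0.889% higher and 2.26% lower). It had 18.2, 26.5, 28.2 and 24.6 CPM in OPA1-deficient libraries and 32.1, 31, 27.4 and 32.6 CPM in WT libraries. OPA1-deficient replicate 3 was above WT replicate 3, and the other OPA1-deficient libraries were below all WT libraries. The difference was −0.34 ± 0.13 (95% interval −0.63 to −0.06, edgeR unadjusted p = 0.0204, edgeR adjusted p = 0.858), and without OPA1-deficient replicate 1 or WT replicate 4 its unadjusted p was no longer under 0.05. Without OPA1-deficient replicate 1 the difference was −0.22, and over the regions nearer to Bcl2a1a than to any other gene it was −0.55. Each of these sums includes the start region of Bcl2a1a described above, so none of them is a result independent of that region.

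The other 9 loci differed by −0.06 to 0.05. The narrowest interval was at Bcl2l1 (0.04 ± 0.07, 95% interval −0.1 to 0.18), with 279 ± 8.65 CPM in OPA1-deficient libraries and 271 ± 13 CPM in WT libraries (SD, n = 4 each). The widest of these were at Mcl1 (−0.02 ± 0.12, 95% interval −0.27 to 0.24) and Bak1 (0.01 ± 0.12, 95% interval −0.25 to 0.26). At Mcl1 the sums were 509 ± 66.3 CPM in OPA1-deficient libraries and 514 ± 95.2 CPM in WT libraries (SD, n = 4 each), with WT replicate 2 at 646 CPM.

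**Figure D5:**
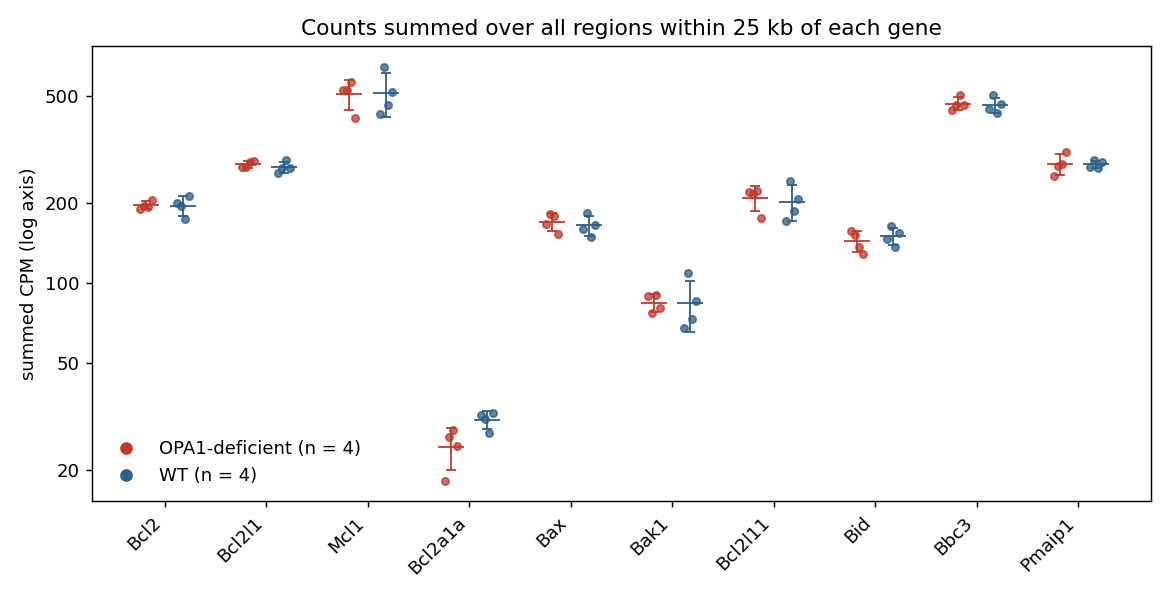
Summed level in CPM (log axis) over all regions of each BCL2 family locus, for each library (points) with group mean and SD (n = 4), OPA1-deficient left of WT. The groups overlap at all 10 loci, and Bcl2a1a shows the lowest sums of the family.

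The rest of the pathway was read at 46 other genes, 38 of which had a tested region at a gene end. None passed in edgeR, where 0% of 10566 gene-end regions did, and 428 of those had an unadjusted p under 0.05. Of the 38, 14 were above 0 and 24 below, with a median of −0.02, against −0.03 over all gene-end regions. The 1 with an unadjusted p under 0.05 (4.05% of all gene-end regions) was Birc3, which encodes the ubiquitin ligase cIAP2. It was at 150 ± 9.75 CPM in OPA1-deficient libraries and 169 ± 13 CPM in WT libraries (SD, n = 4 each). The difference was −0.17 ± 0.08 (edgeR adjusted p = 0.755). By role, 5 of 9 other BCL2 relatives were above 0, as were 2 of 10 genes of released factors, channels and cristae proteases. The caspases had 2 of 6 above 0, the caspase inhibitors 1 of 4, the death receptor arm 1 of 5 and the upstream regulators 3 of 4.

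Vdac1, an outer-membrane channel, was the 1 gene end of the 38 with separated groups, against 3.17% of all gene-end regions. Its levels were 36.4, 35.5, 33.9 and 34.8 CPM in OPA1-deficient libraries and 41.4, 38, 41.3 and 36.6 CPM in WT libraries. The lowest WT value was just above the highest OPA1-deficient one (−0.16 ± 0.11, edgeR adjusted p = 0.869). Other values among the 8 smallest p were −0.14 at Casp2, −0.15 at the channel gene Vdac3, −0.21 at Casp6, −0.14 at Cflar, the inhibitor of caspase-8, and 0.08 at the stress factor gene Ddit3. As locus sums, 0 of 45 genes passed in edgeR, where 0.0236% of all loci did. At an unadjusted p under 0.05 there were 2, against 5.21% of all loci. Of these 2, Bcl2l10, a further BCL2 relative, was at 0.49 ± 0.18 (edgeR adjusted p = 0.841).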

How the data were processed

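ATAC-seq counts over a common set of regions were used for 8 libraries of sorted splenic cDC1, grouped by the genotype in their labels. The deposited values are counts, whole numbers with no normalization. The submitters' processing notes list MACS2 2.1.0.20150603, bedtools, SAMtools, Picard 1.65 and cutadapt 1.9 and the builds mm10 and GRCm38. Their order and settings, any shift of read ends, the treatment of reads with several matches and the rule for the common regions are not given in the sources used here. Whether starts count from 0 or 1 is not given either, and positions follow the table.

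Regions were filtered with filterByExpr (659 removed, 59247 tested), scaled by TMM (factors 0.947 to 1.03) and tested over all 8 libraries with edgeR 4.0.16 (glmQLFit, robust, and glmQLFTest) in R 4.3.3. Benjamini-Hochberg adjustment ran across every tested region, or every locus, with calls at 0.05. Loci sum all regions overlapping or within 25 kb of a protein-coding RefSeq span, and neighbouring loci share regions. Gene ends are within 1 kb of an end of the span. A start region overlaps the window of 250 bases before to 50 after a RefSeq start. The biological coefficient of variation was 0.164 (dispersion 0.027). The fit was also run on counts simulated with known changes from the means and dispersions of these data. Such counts follow the model of the fit, so they cannot show how well it describes these libraries.

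Named one by one were start regions, the strongest region of each member, and regions with an unadjusted p under 0.05 or separated groups. Of the other pathway genes those with the 8 smallest p and any called were named, except for results not reported here. The Bcl2a1 copies and the stretch inside Bcl2 were chosen after values were seen. The members and lists were chosen with earlier results of these data known. No pair within a group had duplicate counts: the chi-square per degree of freedom was 2.16 to 4.74 over 12 pairs. Pairs across groups were not compared in this way. This value cannot show whether libraries came from separate animals. Across regions, log2 CPM of library pairs correlated at 0.94 to 0.962 inside a group and at 0.933 to 0.959 across groups. The alternatives were other scaling factors, DESeq2 1.42.0, limma-voom (limma 3.58.1), other filters, the replicate number as a block, narrower loci and leaving out each library.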

Additional observations from a re-analysis of the deposited data

Results flagged for a closer look

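Of 66 groups of 4 libraries examined, 2 held a library far from the others, where chance alone gives about 1 in 20, and both were OPA1-deficient replicate 4 at Bcl2l11. At its second start region (128127213) this library had 77.6 CPM, against 85.9 to 86.2 CPM in the other OPA1-deficient libraries, a gap of 0.967 of the group's range. Summed over the Bcl2l11 locus it had 175 CPM, against 216 to 222 CPM in the others, a gap of 0.871 of the range. The locus sum includes the start region, so the 2 values are not independent.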

How the results depend on the processing

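No member region passed the adjusted threshold under other scaling factors, DESeq2, limma-voom, no filter or a stricter one, the replicate block or with any library left out. No member locus passed under the same alternatives, the stricter filter aside, which was not run for loci, or with narrower loci. Over the regions nearest to the gene alone, Bak1 had none and gave no value. The count of member regions at an unadjusted p under 0.05 was 2 under every alternative that kept all 8 libraries and 2 to 7 with 1 library left out. Over all regions, edgeR called 12, DESeq2 38, limma-voom 4, total counts 9 and the replicate block 1. Same-numbered libraries did not deviate together (correlations −0.14, −0.01, −0.08 and −0.08), so no pairing by number was seen in the values. These correlations cannot show whether same-numbered libraries were prepared together. With the replicate block the Bcl2a1a start difference was −0.8 (edgeR adjusted p = 0.684). It ran between −1.02 (without OPA1-deficient replicate 3) and −0.62 with 1 library left out, with edgeR adjusted p between 0.229 and 0.826.

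Of 33 named values, 15 kept their direction throughout. Leaving out 1 library turned the sign of values near 0, and the causes were not tested. For regions the ranges were −0.16 to 0.08 and −0.14 to 0.06 (Bcl2 at 106627096 and start), −0.12 to 0.01 (Bcl2l1 at 152830493), −0.06 to 0.11 (Mcl1 start), −0.21 to 0.09 (Bcl2a1a at 88953174), −0.02 to 0.1 and −0.03 to 0.07 (Bax at 45459725 and start), −0.04 to 0.33 and −0.03 to 0.2 (Bak1 at 27025336 and start), −0.05 to 0.16 (Bcl2l11 at 128127213), and −0.05 to 0.07 and −0.02 to 0.17 (Bbc3 at 16285891 and 16310007). For locus sums they were −0.04 to 0.05 (Bcl2), −0.09 to 0.11 (Mcl1), −0.08 to 0.17 (Bak1), −0.02 to 0.15 (Bcl2l11), −0.02 to 0.06 (Bbc3) and −0.05 to 0.05 (Pmaip1). With total counts the Mcl1 start and the Bbc3 region at 16285891 were at 0.02 and the Mcl1 locus at 0.01. DESeq2 gave 0 at the Mcl1 start and 0.01 at its locus, and a CPM of at least 2 in at least 4 libraries gave 0 at that start and at the same Bbc3 region. The Pmaip1 locus was at 0 with the replicate block and −0.07 within 5 kb. With the regions nearest to the gene alone, the Mcl1 locus was at 0.01 and the Bbc3 locus at −0.02.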
